A study of Mus musculus with 12 samples.

Results

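Matrix metalloproteases, their ADAM and ADAMTS relatives and the tissue inhibitors of metalloproteases were examined in mouse skeletal muscle and in a muscle cell line. The set comprised every gene whose name on the array design begins with Mmp, Adam, Adamts or Timp followed by a digit. By this rule 71 of 27595 gene names were members, namely 4 Timp, 21 Mmp, 28 Adam and 18 Adamts genes. Their RNA was measured on 12 Agilent arrays of 1 colour, 3 for each of 4 groups. The groups were soleus muscle and EDL (extensor digitorum longus) muscle of CD1 male mice aged 3 months, C2C12 myotubes and C2C12 myoblasts. C2C12 is an established mouse myoblast line. Each muscle sample pooled the muscles from both hind limbs of 1 mouse. Myotubes had been grown for 96 h in medium with 2% horse serum after reaching 90% confluence. They were then loosened with diluted trypsin, replated for 30 min so that mononucleated cells could attach, and collected from the floating fraction. Myoblasts were collected while proliferating at 50% confluence in 10% fetal bovine serum. No group carried a genetic change or a drug. The cultures thus come from 1 cell line on plates, while the muscles are whole tissues with vessels, nerves and connective tissue.

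Metalloproteases of these families share a zinc-dependent catalytic domain. MMPs are secreted or membrane-bound enzymes that cut collagens, laminins and other matrix proteins. ADAMs are membrane-anchored and release the outer parts of growth factors, cytokines, Notch receptors and adhesion molecules, although several members lack the catalytic site. ADAMTS enzymes are secreted, carry thrombospondin repeats and cut proteoglycans such as versican or trim procollagens. TIMPs bind the active site of many of these enzymes. In muscle, matrix turnover accompanies growth, regeneration and the fusion of myoblasts, and Adam12 and Adam19 were first named meltrins for a role proposed in myoblast fusion.

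The 4 inhibitor genes behaved differently from one another (described next), and so did Adamts1 between the muscles. Promoters of these 5 genes are shown as an anchor to the genome. Each is the stretch of 250 bases upstream of the annotated start in RefSeq (build GRCm38.p6), written 5′ to 3′ on the strand of the gene, and 41 of 71 members had a promoter entry. Capitals mark CANNTG, the letters of an E-box, which myogenic factors of the MyoD family can bind, and TATAAA, the letters of a TATA box.
Timp1, chrX:20869916-20870165, plus strand: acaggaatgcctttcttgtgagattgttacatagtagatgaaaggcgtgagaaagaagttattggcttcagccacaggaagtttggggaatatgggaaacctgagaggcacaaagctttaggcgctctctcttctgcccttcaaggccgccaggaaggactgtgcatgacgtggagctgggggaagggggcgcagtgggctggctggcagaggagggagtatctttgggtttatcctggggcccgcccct
Timp2, chr11:118355412-118355661, minus strand: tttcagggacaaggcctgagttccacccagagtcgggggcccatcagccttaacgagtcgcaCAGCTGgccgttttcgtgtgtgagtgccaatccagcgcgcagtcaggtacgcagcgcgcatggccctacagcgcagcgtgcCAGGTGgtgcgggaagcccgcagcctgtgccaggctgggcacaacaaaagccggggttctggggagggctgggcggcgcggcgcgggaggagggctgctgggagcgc
Timp3, chr10:86300162-86300411, plus strand: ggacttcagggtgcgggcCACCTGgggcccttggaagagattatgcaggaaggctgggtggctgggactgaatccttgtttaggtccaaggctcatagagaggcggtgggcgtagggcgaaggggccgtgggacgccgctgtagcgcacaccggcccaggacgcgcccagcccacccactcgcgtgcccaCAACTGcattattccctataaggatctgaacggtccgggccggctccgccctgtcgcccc
Timp4, chr6:115252206-115252455, minus strand: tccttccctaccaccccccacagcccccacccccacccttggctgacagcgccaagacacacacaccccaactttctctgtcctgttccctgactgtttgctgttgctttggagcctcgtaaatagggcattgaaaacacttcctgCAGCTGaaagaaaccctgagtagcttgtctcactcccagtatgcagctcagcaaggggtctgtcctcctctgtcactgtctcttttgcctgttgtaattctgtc
Adamts1, chr16:85803114-85803363, minus strand: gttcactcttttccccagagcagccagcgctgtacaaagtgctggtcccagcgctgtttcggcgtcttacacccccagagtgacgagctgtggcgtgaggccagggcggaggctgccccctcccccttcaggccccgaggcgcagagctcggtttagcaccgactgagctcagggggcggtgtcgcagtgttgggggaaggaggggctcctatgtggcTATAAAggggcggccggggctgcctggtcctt
Both strands were searched for each motif and overlapping matches were counted. CANNTG had 2 matches in the Timp2 window, 2 in the Timp3 window, 1 in the Timp4 window, and none in those of Timp1 and Adamts1. Windows of this length held CANNTG in 67.4% of the 46 promoters of members and in 66.2% of all 32851 promoters in the table. TATAAA occurred in the Adamts1 window only among these 5, with its first base at position -32 from the start, and in 12.4% of all promoters. GGGCGG, the letters of a GC box, had 3 matches in the Adamts1 window and 1 each in those of Timp1, Timp2 and Timp3, against 32.7% of all promoters with at least 1 match. TGANTCA, the letters of an AP-1 site, had no match in these 5 windows and was present in 10 of 46 promoters of members (21.7%), against 6.7% of all promoters. These matches describe letters in a short window only.

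Values are given on a log2 scale, as the spot signal divided by the 75th percentile of its array with a constant added back, so a difference of 1 is a 2-fold difference. They are called normalized signal, and levels of single genes were not compared with one another. The summed signals of marker lists add up different probes on the linear scale, so the brightest genes weigh most. A gene was tested if some group had its probe well above background on each of 3 arrays. This left 18862 genes, among them 48 of the 71 members: all 4 Timp genes, 10 of 21 Mmp genes, 20 of 28 Adam genes and 14 of 18 Adamts genes. Of the other 23 members, 11 were above background on none of the 12 arrays, while 29 of the tested members were above background on all of them. A gene was called changed at an adjusted p under 0.05 in limma, with Benjamini-Hochberg adjustment over all genes tested, together with a log2 difference of 1 or more in size. Each gene is represented by the brightest of its probes that passed this background filter. A probe is called below background on an array where it was not flagged well above background. Where that held on all arrays of 1 group, only a lower bound of the fold at that probe is given. The background mark of an array is the lowest signal of any probe flagged there. The bound sets the brighter group against this mark, or against the dim group's own signal where that is higher. Probes without the flag can lie above the mark, so the bound is not a strict one. Such a bound holds for this mark and the main background treatment only. Normexp background correction, an alternative, gave smaller differences for some of these genes. It started from the mean signal and the median background of each spot, and 50 was added to every corrected signal. The added 50 by itself shrinks log2 differences of dim probes. Its part in the normexp values below was not tested.

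Each of 3 slides carried 1 array per group, and replicates are numbered by slide. The scan of slide 1, which held all 4 groups, was made on a different day. A group always sat at the same slide position, so group and position cannot be told apart. Total brightness differed between tissue and culture: the 75th percentile of the signal was 476 to 641 on the muscle arrays, against 1064 to 1645 on the culture arrays. Scaling to the spike-in RNA instead of the 75th percentile lowers every gene by 0.96 in EDL minus myotube, by 1.24 in soleus minus myotube, by 0.37 in myotube minus myoblast and by 0.28 in soleus minus EDL. Changes below are therefore relative to the bulk of the genes, whose median difference was 0.23, 0.15, 0.06 and -0.05 in these same comparisons. The summed signal of 8 genes of muscle fibres and myogenic cells was 20.99 to 21.11 in soleus, 20.92 to 21.25 in EDL, 19.58 to 19.64 in myotubes and 14.74 to 14.92 in myoblasts. Slow myosin Myh7 was 3.30 ± 0.13 (SE) higher in soleus than in EDL, and fast myosin Myh4 was 1.16 ± 0.10 (SE) lower.

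**Figure D1:**
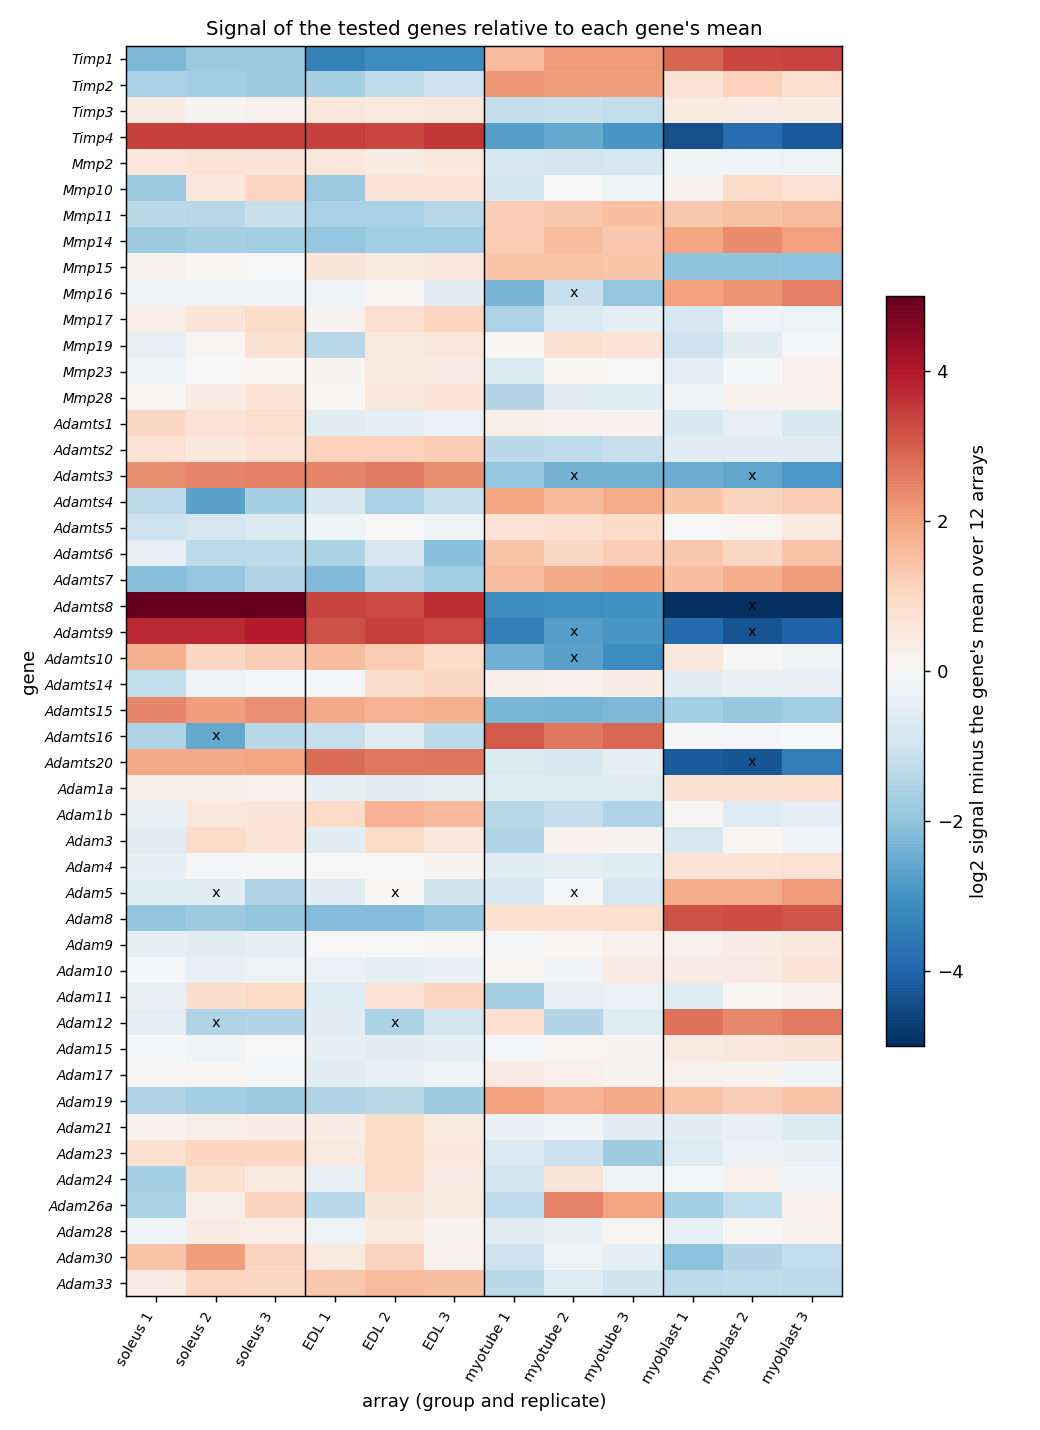
Normalized signal of the 48 tested genes on each of the 12 arrays (columns, soleus, EDL, myotube and myoblast with replicates 1 to 3), as the log2 difference from each gene's mean over the 12 arrays. Colours end at 5 in either direction, and an x marks a group in which the plotted probe was well above background on no array. Timp4, Adamts8, Adamts9 and Adamts15 are high in both muscles, while Timp1, Timp2, Mmp14 and Adam8 are high in both cultures.

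The inhibitors differed between muscle and culture in opposite directions. Timp4, an inhibitor known for its expression in heart, muscle and fat, was 70.3-fold higher in soleus and 71.9-fold higher in EDL than in myotubes. Timp1 and Timp2 were lower in both muscles than in myotubes, and Timp3 was higher. All 4 genes also changed between myotubes and myoblasts, Timp1 and Timp3 being lower and Timp2 and Timp4 higher in myotubes.

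Timp1, a secreted inhibitor that also binds pro-MMP9, had a normalized signal of 10.64, 11.04 and 11.04 in soleus, 9.49, 9.72 and 9.78 in EDL, 14.44, 15.01 and 14.99 in myotubes, and 15.78, 16.21 and 16.26 in myoblasts. No array of a group overlapped with another group. The log2 difference was -3.91 ± 0.19 in soleus minus myotube and -5.15 ± 0.19 in EDL minus myotube (SE, n = 3 arrays a group, adjusted p 2.73e-08 and 3.28e-09 in limma). Myotubes were lower than myoblasts by 2.41-fold (log2 difference -1.27 ± 0.19, adjusted p 0.000209). Both Timp1 probes gave these directions, the dimmer one with -6.06 in EDL minus myotube.

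Timp2 inhibits MMPs and, bound to MMP14, takes part in the activation of pro-MMP2. Its signal was 13.50, 13.45 and 13.34 in soleus, 13.47, 13.88 and 14.09 in EDL, 17.30, 17.24 and 17.24 in myotubes, and 15.84, 16.30 and 15.96 in myoblasts. The muscles overlapped each other and lay below both cultures, with myotubes above myoblasts. Soleus was 14.2-fold and EDL 10.9-fold lower than myotubes (log2 differences -3.83 ± 0.16 and -3.45 ± 0.16, SE). Myotubes exceeded myoblasts by 1.23 ± 0.16, and with spike-in scaling the value was 0.86, which is not a call.

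Timp3 binds to the matrix and inhibits ADAM17 and ADAMTS enzymes as well as MMPs. Its signal was 14.46, 14.22 and 14.29 in soleus, 14.65, 14.56 and 14.60 in EDL, 12.88, 12.95 and 12.83 in myotubes, and 14.55, 14.49 and 14.45 in myoblasts. The myotube arrays lay far below the other 3 groups, which spanned 14.22 to 14.65. The difference was 1.44 ± 0.08 in soleus minus myotube, 1.71 ± 0.08 in EDL minus myotube and -1.61 ± 0.08 in myotube minus myoblast (SE; adjusted p 6.52e-08, 1.56e-08 and 3.85e-08 in limma). With spike-in scaling the muscle differences shrank to 0.20 in soleus and 0.75 in EDL and were no longer called, and normexp background correction ended the soleus call with 1.00.

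Timp4 read 12.28 on each of the 3 soleus arrays, 12.27, 12.23 and 12.44 in EDL, 6.11, 6.35 and 5.98 in myotubes, and 4.49, 5.08 and 4.66 in myoblasts. The muscles overlapped, and each culture group lay below them without overlap. The log2 difference was 6.13 ± 0.15 in soleus minus myotube and 6.17 ± 0.15 in EDL minus myotube (SE; adjusted p 1.59e-10 and 1.33e-10 in limma). Under normexp the differences from myotubes were 4.59 (soleus) and 4.97 (EDL). The smaller difference of 1.40 ± 0.15 between myotubes and myoblasts turned to -0.63 under normexp and was 1.04 with spike-in scaling, not called in either. Fewer cells of a kind and less RNA per cell cannot be told apart in such bulk samples.

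**Figure D2:**
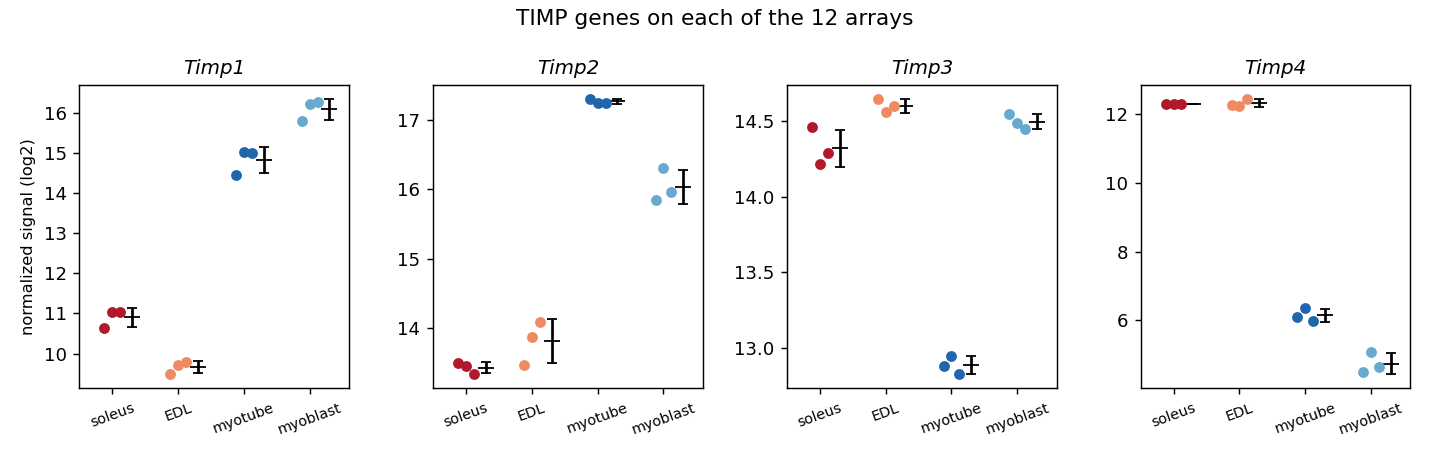
Normalized signal (log2, vertical axis) of the 4 inhibitor genes on each array. Points are arrays of soleus, EDL, myotube and myoblast from left to right, and the black marks give the mean and SD of the 3 arrays; vertical axes differ between panels. Timp1 and Timp2 lie lower in both muscles than in both cultures, Timp4 lies higher, and Timp3 is lowest in myotubes.

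Muscle was set against myotubes to see how far the cultured, differentiated cells resemble the tissue in these families. Of the 48 tested members, 17 were higher and 12 lower in soleus than in myotubes, and 17 were higher and 10 lower in EDL than in myotubes. Across all 18862 genes, 45.4% were called in soleus minus myotube (26.0% higher, 19.3% lower) and 47.9% in EDL minus myotube (28.4% higher, 19.6% lower), so calls were common in general. The members' median difference was 0.31 and 0.35, beside 0.15 and 0.23 over all genes. With spike-in scaling the split was 7 higher and 19 lower in soleus, and 10 higher and 17 lower in EDL. Both comparisons share the myotube arrays. The directions of the genes named below are those of the main scaling.

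Among MMPs, the membrane-type enzyme Mmp14 and the stromelysin Mmp11 were lower in both muscles, and the gelatinase Mmp2 was higher. Mmp14, a membrane-bound collagenase and activator of pro-MMP2, had signals of 11.14, 11.25 and 11.19 in soleus, 11.01, 11.19 and 11.17 in EDL, 14.19, 14.51 and 14.27 in myotubes, and 14.91, 15.29 and 14.98 in myoblasts. Its probe maps to mm8 chromosome 14, 53395337 to 53395396, on the plus strand. The muscles overlapped and lay far below the cultures, 8.78-fold below myotubes in soleus and 9.22-fold in EDL (log2 differences -3.13 ± 0.12 and -3.20 ± 0.12, SE). Its second probe gave -3.44 and -3.15.

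Mmp11, an unusual stromelysin released already active, read 8.90, 8.86 and 9.13 in soleus, 8.61, 8.63 and 8.80 in EDL, 11.48, 11.58 and 11.75 in myotubes, and 11.57, 11.72 and 11.84 in myoblasts. Both muscles lay below both cultures, which overlapped each other, and the difference was -2.64 ± 0.11 in soleus minus myotube and -2.92 ± 0.11 in EDL minus myotube. Mmp2, the gelatinase that degrades denatured collagen and basement membrane, read 10.35, 10.52 and 10.44 in soleus, 10.38, 10.19 and 10.35 in EDL, 8.98, 8.88 and 8.93 in myotubes, and 9.70, 9.61 and 9.56 in myoblasts. Its muscle arrays were all above the cultures, by 1.50 ± 0.08 (soleus) and 1.37 ± 0.08 (EDL) over myotubes. The Mmp2 calls were lost with spike-in scaling, at 0.27 and 0.41.

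Of the other membrane-type enzymes, Mmp17, which has a glycolipid anchor, was 1.56 ± 0.32 (soleus) and 1.61 ± 0.32 (EDL) above myotubes, and its other probe gave 2.94 and 2.89. Mmp16 was below background on all 3 myotube arrays, but above it on only 2 soleus arrays and 1 EDL array. The muscle means lay 1.72-fold (soleus) and 1.66-fold (EDL) above the background mark of the myotube arrays, which is not a firm lower bound. Mmp15 was lower in soleus (-1.30 ± 0.07, and -0.88 under normexp, not called), while its EDL difference of -0.87 missed the size threshold. Mmp28, a secreted enzyme also called epilysin, was 1.24 ± 0.27 and 1.30 ± 0.27 higher in soleus and EDL. With spike-in scaling the calls of Mmp16, Mmp17 and Mmp28 were lost in both muscles, and those of Mmp16 and Mmp28 also under quantile normalization and normexp. Normexp ended the EDL call of Mmp17 as well (1.05, adjusted p 0.134 in limma). Without myotube replicate 1 the Mmp28 calls were lost, at 0.93 in soleus and 0.99 in EDL.

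Collagenases and the other gelatinase could not be tested. Mmp1a, Mmp8 and Mmp13, which cut fibrillar collagen, were above background on all 3 arrays of no group, and neither was Mmp9. Mmp8 was above background on 1 soleus array and 2 EDL arrays, and Mmp9 and Mmp13 on 1 EDL array each. Mmp3, Mmp12, Mmp20, Mmp21 and Mmp25 were above background on no array, as was Mmp1a.

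Of 20 tested ADAM genes, 4 were higher and 2 lower in soleus than in myotubes, with the same counts in EDL. That is 30.0% called in each muscle, beside 45.4% (soleus) and 47.9% (EDL) of all genes. Adam8, a sheddase first described in macrophages, read 8.39, 8.55 and 8.41 in soleus, 8.21, 8.19 and 8.39 in EDL, 11.17, 11.21 and 11.20 in myotubes, and 13.53, 13.62 and 13.52 in myoblasts. Each step between muscle, myotube and myoblast was free of overlap. Soleus was 6.70-fold and EDL 7.62-fold below myotubes (log2 differences -2.74 ± 0.08 and -2.93 ± 0.08, SE). The summed signal of macrophage and leukocyte markers was 13.89 to 13.97 in soleus, 13.80 to 13.86 in EDL, 8.35 to 8.59 in myotubes and 7.79 to 8.01 in myoblasts. Of these 9 markers 8 were called higher in both muscles than in myotubes, while Cd68 had means of 6.91 in soleus, 6.16 in EDL and 6.34 in myotubes. The part of such cells in the Adam8 signal was not tested.

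Adam19, meltrin beta, read 6.57, 6.37 and 6.27 in soleus, 6.57, 6.68 and 6.32 in EDL, 10.12, 9.83 and 9.97 in myotubes, and 9.51, 9.31 and 9.50 in myoblasts. The muscles overlapped and were 11.9-fold (soleus) and 10.9-fold (EDL) below myotubes. A second probe gave -3.69 and -3.45, whereas another, dimmer one gave 1.46 and 1.50, so the probes disagree in direction. Adam12, meltrin alpha, was below background on all muscle arrays and above it on 1 of 3 myotube arrays, with myotube signals of 4.07, 1.75 and 2.60. Its muscle-minus-myotube differences of -0.75 ± 0.53 (soleus) and -0.60 ± 0.53 (EDL) did not pass, and its second probe gave 0.84 and 0.65, the other direction.

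The general sheddases did not pass the test. Adam17, which releases TNF and EGF receptor ligands, read 10.52, 10.56 and 10.39 in soleus, 9.88, 10.04 and 10.26 in EDL, 10.85, 10.72 and 10.59 in myotubes, and 10.67, 10.62 and 10.31 in myoblasts. Adam10, which cuts Notch and cadherins, differed by -0.36 ± 0.15 in soleus and -0.50 ± 0.15 in EDL from myotubes. Its only probe was dim, with means of 4.93 in soleus, 4.79 in EDL and 5.29 in myotubes. It was above background on 2 of 3 arrays of each muscle, so it says little about a small difference. Adam9 differed by -0.58 and -0.06, and Adam15 by -0.14 and -0.57. None of these 4 genes reached the size threshold in a comparison with myotubes. With spike-in scaling Adam10, Adam15 and Adam17 were called lower in both muscles and Adam9 in soleus, and quantile normalization called Adam10 lower in EDL.

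Other ADAM genes were higher in muscle. Adam33 was 1.84 ± 0.20 (soleus) and 2.48 ± 0.20 (EDL) above myotubes, and its other probe gave 6.23 and 7.25. Adam23, which lacks protease activity and binds LGI proteins in neurons, was 2.17 ± 0.25 and 1.83 ± 0.25 above myotubes, with 5.19 and 4.22 at its other probe. Adam30 was 2.13 ± 0.34 and 1.16 ± 0.34 higher, and Adam1b, known in mouse from sperm, 1.65 ± 0.30 and 2.83 ± 0.30. With spike-in scaling the soleus calls of all 4 were lost, and so were the EDL calls of Adam23 and Adam30; normexp ended the calls of Adam1b, Adam23 and Adam30 in both muscles.

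ADAMTS genes moved in both directions. Of the 14 tested, 7 were higher and 5 lower in soleus than in myotubes, and 7 were higher and 4 lower in EDL. That is 85.7% called in soleus and 78.6% in EDL, beside 45.4% and 47.9% of all genes. Whether the set differs from all genes was not tested. Of the 7 hyalectan-cleaving enzymes, 4 were higher in both muscles (Adamts8, Adamts9, Adamts15 and Adamts20), Adamts4 was lower in both and Adamts5 was called lower in soleus. Among the 3 procollagen N-propeptidases, Adamts2 and Adamts3 were higher in both muscles.

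Adamts8, a secreted proteoglycanase, had the highest difference of the members in soleus minus myotube. Its signal was 12.33, 12.25 and 12.57 in soleus, 10.27, 10.21 and 10.59 in EDL, 3.72, 3.82 and 3.87 in myotubes, and 1.17, 1.04 and 0.92 in myoblasts. The groups formed 4 separate steps; the probe was above background on 2 of 3 myotube arrays and on no myoblast array. The log2 difference was 8.58 ± 0.13 in soleus minus myotube and 6.55 ± 0.13 in EDL minus myotube (SE; adjusted p 8.47e-12 and 3.63e-11 in limma). Under normexp these differences were 5.38 and 3.84. Its probe maps to mm8 chromosome 9, 30712200 to 30712259, on the plus strand.

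Adamts9, a versican-cleaving enzyme, read 8.66, 8.68 and 8.88 in soleus and 8.12, 8.37 and 8.25 in EDL at its brightest probe, which was below background on all culture arrays. At that probe muscle was at least 38.5-fold (soleus) and 27.4-fold (EDL) higher than myotubes. Under normexp the log2 differences were 3.13 (soleus) and 2.51 (EDL), which lie below these bounds. The gene was above background on 2 of 3 arrays of each culture at another probe, and its other probes gave smaller differences of 2.94 and 3.40 in soleus and 2.58 and 2.83 in EDL. Adamts15, an aggrecan- and versican-cleaving enzyme, read 9.12, 8.77 and 8.95 in soleus, 8.57, 8.42 and 8.45 in EDL, 4.40, 4.37 and 4.43 in myotubes, and 5.00, 4.77 and 4.93 in myoblasts. Both muscles lay above both cultures, and soleus was 23.4-fold and EDL 16.9-fold above myotubes. Adamts20 was 2.58 ± 0.18 and 3.36 ± 0.18 higher than in myotubes, and normexp ended both calls.

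The aggrecanase Adamts4 went the other way, with 6.66, 5.32 and 6.33 in soleus, 7.20, 6.37 and 6.83 in EDL, 9.94, 9.64 and 9.85 in myotubes, and 9.36, 9.08 and 9.24 in myoblasts. It was lower in muscle without overlap, with -3.70 ± 0.31 in soleus minus myotube and -3.01 ± 0.31 in EDL minus myotube. Adamts5, the other main aggrecanase, was -1.70 ± 0.14 in soleus minus myotube and -0.98 ± 0.14 in EDL minus myotube, a value just short of the size threshold and called in some fits with 1 replicate left out.

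The enzymes that remove the amino-terminal propeptide of fibrillar procollagens were represented by Adamts2, with 11.64, 11.42 and 11.62 in soleus, 12.06, 12.06 and 12.17 in EDL, 9.57, 9.64 and 9.74 in myotubes, and 10.34, 10.33 and 10.34 in myoblasts. All 4 groups were separate, and muscle exceeded myotubes by 1.91 ± 0.08 (soleus) and 2.44 ± 0.08 (EDL), or by 0.67 in soleus with spike-in scaling, no longer a call. Adamts3 was below background in both cultures and at least 6.56-fold (soleus) and 6.67-fold (EDL) higher in muscle than in myotubes. Adamts14 differed by -0.83 ± 0.33 and 0.28 ± 0.33, and its other probe gave -2.52 and -1.83.

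Of the remaining ADAMTS enzymes, Adamts7, which cuts the cartilage matrix protein COMP, was lower, with -3.66 ± 0.24 in soleus and -3.59 ± 0.24 in EDL. Adamts16 was at least 16.0-fold lower in soleus and -3.85 ± 0.30 in EDL at its brightest probe, but its second probe gave only -1.29 and -0.78. Adamts6 was -2.23 ± 0.32 and -2.73 ± 0.32 relative to myotubes; under normexp the soleus value turned to 0.06. Adamts10, linked to fibrillin microfibrils, was below background on the myotube arrays at its brightest probe, where it was at least 11.3-fold higher in EDL and the bound in soleus was 3.59 on the log2 scale. The gene was above background on 2 of 3 myotube arrays at another probe, and the second probe tested gave 1.68 in soleus and 1.85 in EDL. Normexp left the calls of Adamts3, Adamts6, Adamts10 and Adamts16 out in both muscles.

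**Figure D3:**
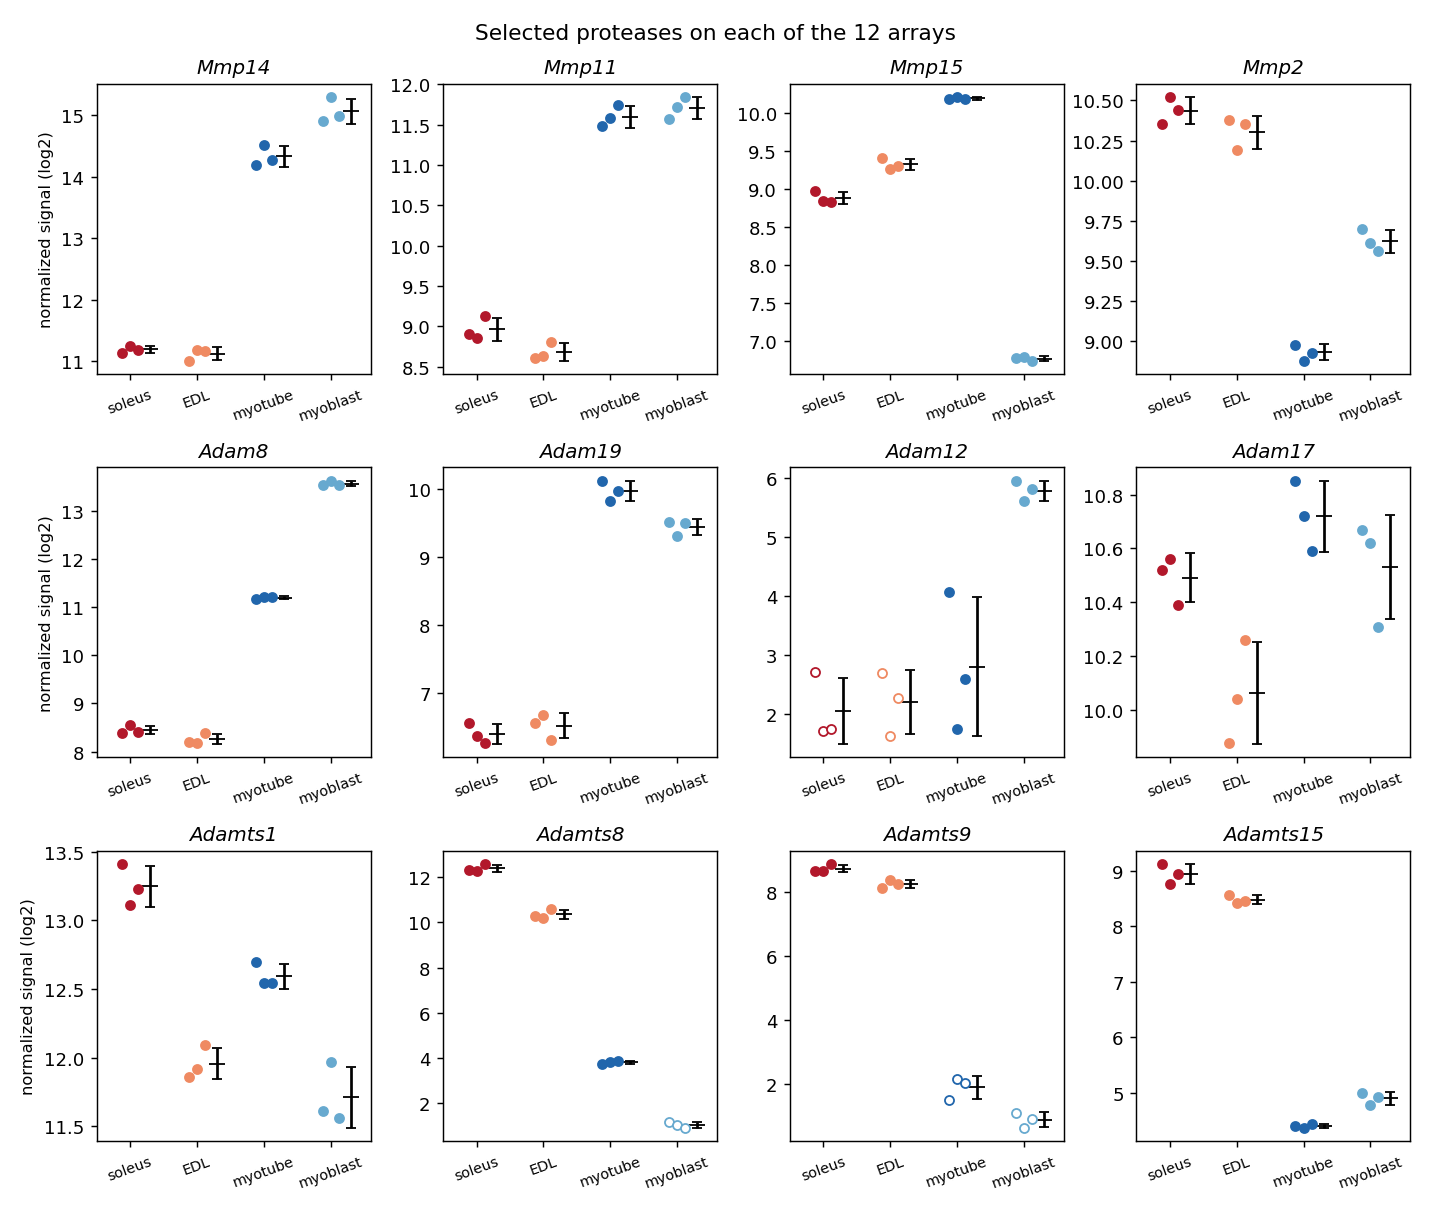
Normalized signal (log2, vertical axis) of 12 proteases on each array, for soleus, EDL, myotube and myoblast from left to right. Filled points belong to groups in which the plotted probe was well above background on at least 1 array and open points to groups with none; black marks are the mean and SD of 3 arrays, and vertical axes differ between panels. Adamts8 and Adamts15 are higher in both muscles than in both cultures, and Mmp14, Mmp11, Adam8 and Adam19 are lower.

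Markers of other cell types were higher in the muscles than in myotubes. The summed signal of 8 endothelial markers was 15.64 to 15.67 in soleus, 15.45 to 15.49 in EDL, 8.82 to 9.30 in myotubes and 10.14 to 10.34 in myoblasts; all 8 were called higher in both muscles, and Cdh5, Emcn and Tie1 were below background in myotubes. All 9 fibroblast markers were called higher than in myotubes (sums of 16.85 to 16.94 in soleus, 17.28 to 17.56 in EDL, 13.16 to 13.51 in myotubes and 15.06 to 15.45 in myoblasts). So were all 6 Schwann cell markers in both muscles, 7 of 7 smooth muscle and pericyte markers in soleus and 6 of 7 in EDL, 8 of 9 macrophage and leukocyte markers in both, and 4 of 4 tested adipocyte markers in both. The part of these cells in the higher and lower members was not tested. Of 5 neutrophil markers, 3 in soleus and 2 in EDL were not above background, S100a8 and Camp in both. The only one tested, S100a9, was at least 8.47-fold (soleus) and 13.1-fold (EDL) higher than in myotubes.

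Genes that act with these proteases were also followed, from lists of activators, inhibitors and substrates. Of 8 tested genes for iRhoms, the iRhom partner Frmd8 and tetraspanins, which help carry ADAM17 and ADAM10 to the surface, 7 were lower in soleus and 6 in EDL than in myotubes, and none was higher. Tspan14 had -3.65 ± 0.15 in soleus and -2.17 ± 0.15 in EDL, and Tspan5 had -2.25 ± 0.14 and -2.32 ± 0.14. Among 8 activators, the proprotein convertase Pcsk5 was at least 31.5-fold (soleus) and 20.1-fold (EDL) higher at its brightest probe, and Pcsk6 was 4.22 ± 0.07 and 4.36 ± 0.07 higher. Of 4 tested inhibitors outside the TIMPs, Serpine2 was 5.42 ± 0.24 and 5.37 ± 0.24 higher, and Reck, a membrane inhibitor of MMPs, 1.75 ± 0.19 and 1.88 ± 0.19. Of 14 membrane proteins shed by ADAM10 or ADAM17, 2 were higher and 4 lower in soleus, and 3 higher and 4 lower in EDL, with Cdh2 (N-cadherin) at -4.71 ± 0.16 and -5.35 ± 0.16. Of 5 tested ADAMTS substrates, Comp and Vwf were higher in both muscles, Comp by 5.37 ± 0.40 and 5.47 ± 0.40. Of 5 tested ADAMTS-like genes, 2 were higher and 3 lower in soleus, and 2 higher and 2 lower in EDL. Adamtsl2 had -3.29 ± 0.14 in soleus and -3.21 ± 0.14 in EDL, whereas Adamtsl4 had 2.42 ± 0.17 in soleus and Adamtsl3 had 2.29 ± 0.13 in EDL.

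Myotubes were set against myoblasts to follow differentiation in culture. Of the 48 tested members, 8 were higher and 10 lower in myotubes, and across all genes 35.4% were called (19.3% higher, 16.1% lower). The members' median difference was -0.15, beside 0.06 over all genes. With spike-in scaling 4 were higher and 9 lower, and the replicate block gave 10 higher and 10 lower. Mmp15 rose and Adam8, Adam12 and Mmp16 fell, besides the inhibitors described above.

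Mmp15, a membrane-type MMP, read 10.19, 10.21 and 10.18 in myotubes, against 6.78, 6.80 and 6.75 in myoblasts. The groups were far apart and each spanned less than 0.1, with a difference of 3.42 ± 0.07 or 10.7-fold (SE, adjusted p 7.31e-11 in limma). Under normexp the Mmp15 difference was smaller, 1.84, and still a call. Mmp16, another membrane-type MMP, read 6.49, 6.72 and 6.98 in myoblasts and was below background in myotubes, at least 9.57-fold lower. Mmp14 differed by -0.73 ± 0.12, Mmp2 by -0.69 ± 0.08 and Mmp11 by -0.11 ± 0.11, and none of these was a call.

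Adam8 was 5.15-fold lower in myotubes than in myoblasts (log2 difference -2.37 ± 0.08). Adam12 fell by 2.97 ± 0.53 on the log2 scale, with myotube signals of 4.07, 1.75 and 2.60, against 5.94, 5.60 and 5.80 in myoblasts; the myotube arrays were scattered, and normexp gave -1.76, not called. Its second probe gave -3.16. Adam19 differed by 0.54 ± 0.12, Adam17 by 0.19 ± 0.13, Adam10 by -0.39 ± 0.15, Adam9 by -0.29 ± 0.09 and Adam15 by -0.49 ± 0.08, all short of the size threshold. Of the ADAM genes known mainly from testis, Adam1a was -1.42 ± 0.07, Adam4 was -1.19 ± 0.11, Adam1b was -1.03 ± 0.30 and Adam5 was at least 3.38-fold lower at its brightest probe. Adam30 was 1.01 ± 0.34 higher, lost in 6 fits that leave out a replicate (0.78 without myoblast replicate 1) and -0.80 under normexp. The Adam1b call was lost without myoblast replicate 1 (-0.83) or myotube replicate 3 (-0.95). Normexp kept the direction of Mmp16 (-2.07), Adam5 (-1.59), Adam4 (-1.43) and Adam1b (-1.41) but not their calls.

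Among ADAMTS genes, Adamts16 read 8.53, 8.09 and 8.32 in myotubes, against 5.40, 5.34 and 5.47 in myoblasts, a difference of 2.91 ± 0.30, with 1.54 at its second probe. Adamts20 was at least 3.55-fold higher in myotubes, since its brightest probe was below background on the myoblast arrays. Another Adamts20 probe was above it on 2 of 3. The Adamts8 probe was also below background on the myoblast arrays, and above it on only 2 of 3 myotube arrays. Its myotube mean lay 1.79-fold above the background mark of the myoblast arrays, which is not a firm lower bound. Normexp turned Adamts20 to -0.81, Adamts8 to -1.07 and Adamts16 to 0.61, with no call. Adamts9 passed the test with 1.01 ± 0.18 but its brightest probe was below background in both groups, so no fold is given; its other probes gave 0.28 and 1.64, and its call was lost without myoblast replicate 2 (0.89), myotube replicate 2 (0.88) or myotube replicate 3 (0.95). Adamts10 read 6.25, 5.78 and 5.55 in myoblasts and was at least 5.25-fold lower in myotubes at its brightest probe, with -1.69 and no call under normexp, while its second probe gave only -0.57. Adamts1 was 0.88 ± 0.13 higher, Adamts5 0.67 ± 0.14 and Adamts4 0.58 ± 0.31, none a call. Adamts2 had -0.69 ± 0.08 at the brightest probe, while 2 of its 4 probes had positive differences.

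Urokinase and its receptor, of the plasminogen system, were lower in myotubes. The urokinase receptor Plaur was -5.59 ± 0.11 in myotube minus myoblast and urokinase itself (Plau) -3.07 ± 0.16. Of 8 tested activators 1 was higher and 3 were lower. The versican gene Vcan, a substrate of ADAMTS enzymes, was -3.91 ± 0.17. Of the 5 tested ADAMTS-like genes 3 were higher, with Adamtsl1 at least 47.0-fold higher at its brightest probe and Adamtsl2 at 5.85 ± 0.14. Of 14 shed membrane proteins, 1 was higher and 5 were lower, among them Areg (amphiregulin) with -3.75 ± 0.28 and Cd44 with -2.44 ± 0.15.

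**Figure D4:**
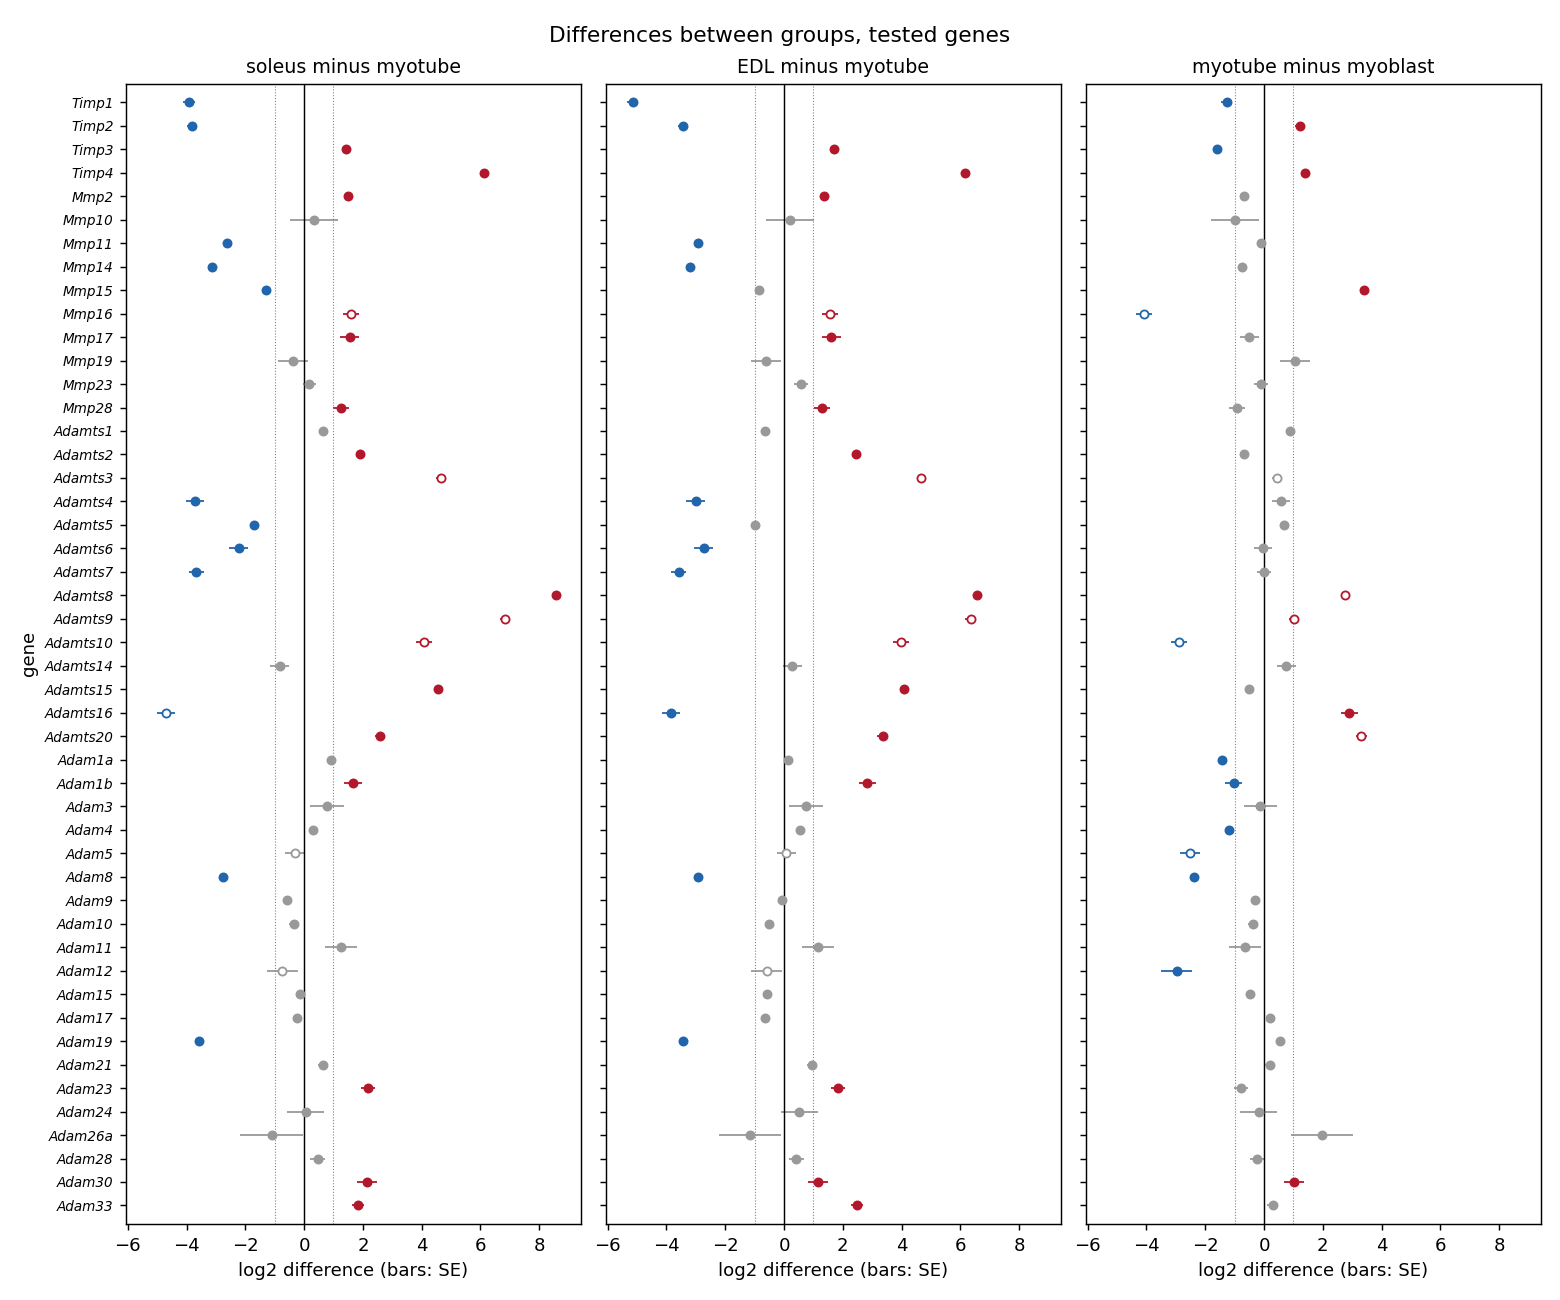
Log2 differences of the 48 tested genes with SE (horizontal axis) in soleus minus myotube, EDL minus myotube and myotube minus myoblast. Red points were called higher and blue points called lower, grey points were not called, open points had 1 or both groups below background at the plotted probe, and dotted lines mark a difference of 1 in either direction. Adamts8, Adamts9 and Timp4 lie farthest right in both muscle panels, and Timp1 and Adamts16 are among the lowest.

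Over the whole span from muscle to proliferating myoblasts, 14 members were higher and 14 lower in soleus (55.5% of all genes called, 31.4% higher and 24.1% lower), and 16 were higher and 14 lower in EDL (58.0% of all genes called, 33.8% higher and 24.2% lower). Spike-in scaling gave 7 higher and 25 lower in soleus, and 8 higher and 22 lower in EDL. Timp1 was 36.2-fold and 85.4-fold lower than in myoblasts in soleus and EDL, and Adam8 was 34.5-fold and 39.3-fold lower. Mmp14 had -3.87 ± 0.12 and -3.94 ± 0.12. Adamts8 was at least 685-fold (soleus) and 168-fold (EDL) higher, and Timp4 186-fold and 190-fold. Under normexp these shrank to log2 differences of 4.31 and 2.76 for Adamts8 and 3.97 and 4.34 for Timp4. Their size thus depends on the background treatment, the added 50 included. Mmp15 was 2.11 ± 0.07 and 2.55 ± 0.07 higher than in myoblasts, so its muscle level lay between those of myotubes and myoblasts. Mmp16 was lower by -2.48 ± 0.27 and -2.52 ± 0.27. Timp3 was -0.17 ± 0.08 and 0.10 ± 0.08, not called; its direction in EDL turned with quantile normalization and with spike-in scaling. The other calls of Adamts2, Adamts3, Adamts9, Adamts15, Adamts20, Adam23, Adam30, Adam33, Adamts10 and Mmp17 were higher in both muscles, those of Timp2, Mmp11, Adam5, Adam12, Adam19, Adamts4, Adamts6 and Adamts7 lower in both. In EDL alone Adam1b, Adam21 and Adamts14 were called higher and Adam1a and Adam15 lower; in soleus alone Adamts1 was called higher and Adamts5 and Adamts16 lower. Spike-in scaling turned the sign of Adam23, Adamts10 and Mmp17 in both muscles, of Adam21 and Adamts14 in EDL, and of Adamts1 and Adamts2 in soleus. Normexp turned Adam1b (-0.074), Adam21 (-0.23), Adam23 (-0.41), Adam30 (-0.012) and Adamts10 (-0.090) in EDL, and left 12 members called in each muscle. Higher calls that it left were those of Timp4 and Adamts8 in both muscles, Adamts2 in EDL and Adamts1 in soleus. The other probe of Adamts14 gave -0.29 in EDL, and in soleus those of Adamts5 and Adamts16 gave 0.093 and 0.25. Some calls were lost without a single array, such as Adam21 without EDL replicate 2 (0.97), Adamts14 without EDL replicate 3 (0.83) and Adamts5 without myoblast replicate 3 (-0.90). The same was seen for Mmp17 without myoblast replicate 1 (0.85 in soleus and 0.90 in EDL), Adam23 in EDL without EDL replicate 2 (0.90), and Adamts10 without soleus replicate 1 (0.97) and without myoblast replicate 3 in EDL (0.95).

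Soleus, a slow muscle, was set against EDL, a fast one. Only 5 of the 48 tested members were called, 3 higher and 2 lower in soleus, where 9.73% of all genes were called (4.93% higher, 4.80% lower). The members' median difference was 0.01, beside -0.05 over all genes. Adamts8, Adamts1 and Timp1 were higher in soleus, and Adam1b and Adamts14 were lower.

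Adamts8, with the array values given above, was 4.08-fold higher in soleus (log2 difference 2.03 ± 0.13, adjusted p 1.33e-06 in limma). Its groups did not overlap, and the difference was 1.98 to 2.06 in pairs of arrays from the same slide. Adamts1, a versican-cleaving proteoglycanase, read 13.41, 13.11 and 13.23 in soleus, 11.86, 11.92 and 12.09 in EDL, 12.70, 12.54 and 12.54 in myotubes, and 11.61, 11.97 and 11.56 in myoblasts. The muscles stood on opposite sides of the myotubes, with differences of 0.66 ± 0.13 in soleus and -0.63 ± 0.13 in EDL, and with spike-in scaling soleus was also lower (-0.58). Soleus exceeded EDL by 1.29 ± 0.13, or 2.45-fold, and the second probe gave 1.21. The Adamts1 probe maps to mm8 chromosome 16, 85683995 to 85684054, on the minus strand.

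Timp1 was 2.36-fold higher in soleus than in EDL (1.24 ± 0.19, adjusted p 0.000821), with no overlap and with 1.26 at its other probe. Adam1b read 4.98, 5.93 and 5.97 in soleus, against 6.36, 7.09 and 6.97 in EDL (-1.18 ± 0.30, adjusted p 0.0129), and Adamts14 read 6.90, 7.89 and 8.04 in soleus, against 8.05, 8.98 and 9.15 in EDL (-1.12 ± 0.33, adjusted p 0.0253). For both genes the arrays of slide 1 were lowest in both muscles. Both calls were lost in the fit of soleus and EDL alone. They were also lost when replicate 2 or 3 of all groups, EDL replicate 2 or soleus replicate 1 was left out. Without soleus replicate 1 the differences were -0.86 for Adam1b and -0.76 for Adamts14. These fits had no slide block, so leaving out 1 array leaves its partner on the slide unmatched. With the slide as a block both calls were kept, and soleus was below EDL on each of the 3 slides. The Adamts14 call was also lost without EDL replicate 3, and with the mean over its probes (-0.90). Under normexp limma called none of the 5, and Adam1b turned to 0.36, with 7 of 48 members at an unadjusted p under 0.05 and 455 genes called in all, and with spike-in scaling only Adamts8 was called. Timp2 (-0.38 ± 0.16), Timp3 (-0.28 ± 0.08), Timp4 (-0.03 ± 0.15), Mmp2 (0.13 ± 0.08), Mmp14 (0.07 ± 0.12), Adam12 (-0.15 ± 0.53), Adam19 (-0.12 ± 0.12), Adam10 (0.14 ± 0.15), Adam9 (-0.51 ± 0.09), Adam15 (0.43 ± 0.08) and Adam17 (0.43 ± 0.13) were not called. Neither were Adamts2 (-0.54 ± 0.08), Adamts4 (-0.70 ± 0.31) and Adamts5 (-0.71 ± 0.14).

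Some genes of other cell types differed between the muscles as well. The summed adipocyte signal was 12.93 to 13.18 in soleus and 11.39 to 11.64 in EDL, with 3 of 4 tested markers called higher in soleus, and the Schwann cell sum was 15.15 to 15.21 in soleus and 14.10 to 14.12 in EDL, with 2 of 6 called higher. None of the endothelial, macrophage, fibroblast or smooth muscle markers was called. Their part in the 5 calls was not tested. Of the partner genes, Adamtsl1 was -3.04 ± 0.27, Tspan14 -1.48 ± 0.15 and Bsg, an inducer of MMPs, -1.33 ± 0.09 in soleus minus EDL.

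**Figure D5:**
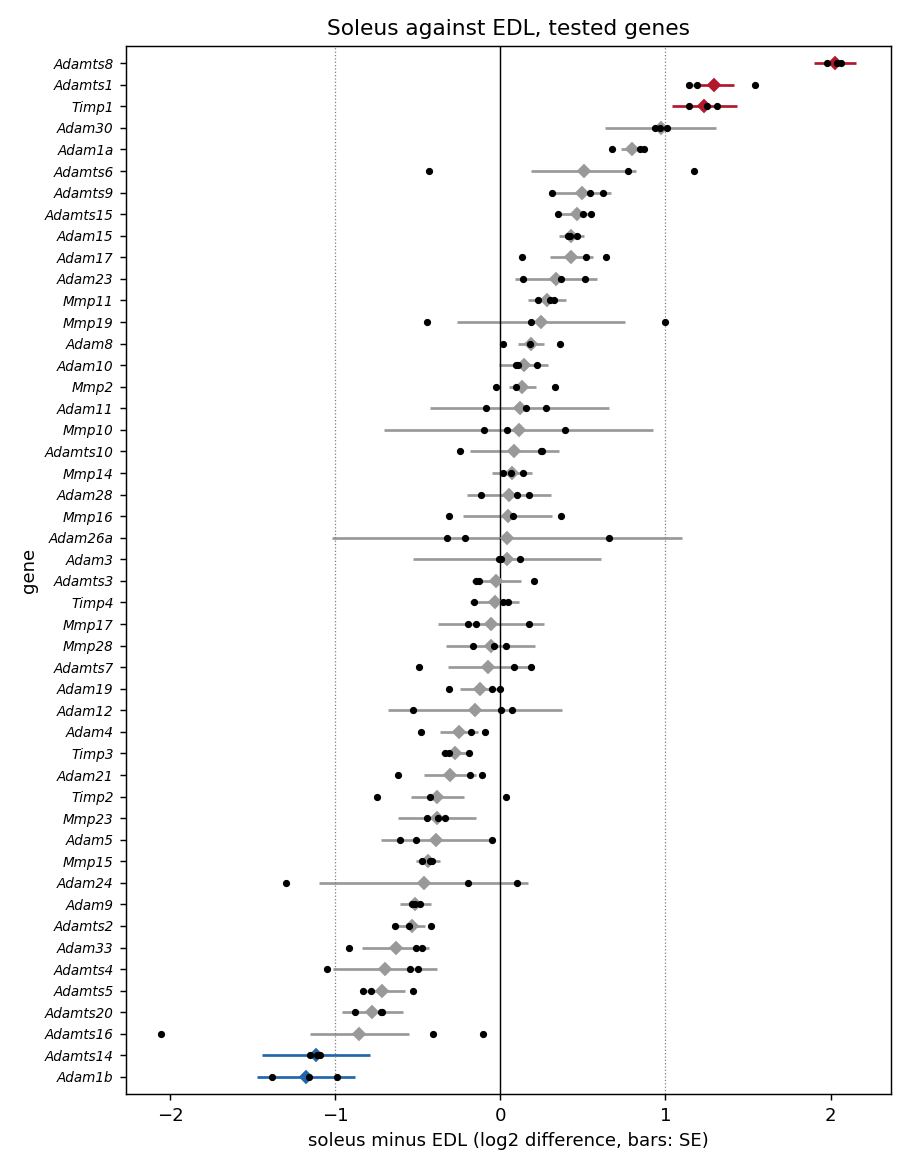
Soleus minus EDL difference of the 48 tested genes (log2, horizontal axis), sorted by size. Diamonds with bars are the fitted difference and SE, red for called higher, blue for called lower and grey for not called; black dots are the differences between the arrays of each slide, and dotted lines mark 1 in either direction. Adamts8, Adamts1 and Timp1 lie above 1 on all 3 slides, and Adamts14 and Adam1b lie lowest.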

How the data were processed

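RNA of the 12 samples was labelled with Cy3 and read on Agilent mouse arrays. Per the file headers, Agilent Feature Extraction 10.5.1.1 made the deposited intensity of each spot (its processed signal), with the background subtracted and no scaling between arrays. Saturation, outlier and well-above-background flags (per the file headers a score of 0 or 1) come from the same files. The authors' deposited table of values is an intensity too; its normalization is not given in the sources used here, and it served as an alternative only.

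Outlier spots were left out (68 to 140 per array; none saturated) and spots of a probe averaged, giving 41174 probes, of which 28607 were kept. Signals were taken to log2, each array's 75th percentile was subtracted and 9.71 added back. The kept probe with the highest mean stood for a gene. Probes were named through the RefSeq table of GRCm38.p6; the file's name was kept for 8058, and coordinates are those of the array design (mm8). The number of arrays limits precision.

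Tests were two-sided, from lmFit and eBayes of limma 3.58.1 (R 4.3.3), fitted to all 12 arrays with a mean per group and without a block, at 8 residual and 1.75 prior degrees of freedom. Since no label says that cultures were grown apart, p-values cover only the spread between these samples. Replicate numbers mark the slide, and same-numbered arrays deviated together (correlations 0.22 to 0.66 over genes), so they pair the samples. A fit with the slide as a block, other background, scaling, filter and probe rules, the authors' values and fits without each array were alternatives. Members, lists and tests were chosen with earlier results of these data known. Genes named are all called members, 17 members fixed by name, and up to 3 called genes of each partner list and comparison by size; examples of that rule are given, and 1 gene is not reported here. Protein sequences were not used here.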

Additional observations from a re-analysis of the deposited data

Results flagged for a closer look

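The difference between muscle and myotube was not the same in the 2 muscles for 5 members, by limma's test of that difference (soleus minus EDL, which removes the shared myotube arrays). For Adamts8 the difference between the muscle effects was 2.03 (8.58 in soleus and 6.55 in EDL). For Adamts1 it was 1.29, with 0.66 in soleus and -0.63 in EDL. Timp1 had 1.24, since soleus stood at -3.91 and EDL at -5.15 relative to myotubes. Adam1b had -1.18 (1.65 in soleus and 2.83 in EDL), and Adamts14 had -1.12 (-0.83 in soleus and 0.28 in EDL). These are the 5 soleus minus EDL calls described above, and 0 of 5 held in every alternative. Under normexp none was called and Adam1b turned to 0.36, and with spike-in scaling only Adamts8 was called. The Adam1b and Adamts14 calls were also lost in the fit of the 2 muscles alone. The same sign was seen on all 3 slides for each of the 5, but the calls rest on these same arrays, so this is no separate support. Groups of 3 arrays are too small for a test of single outlying arrays.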

How the results depend on the processing

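The counts of called members moved as follows, the cause not tested unless stated. Normexp gave 7 in myotube minus myoblast (18 in the values reported), 18 in soleus minus myotube (29), 16 in EDL minus myotube (27), 0 in soleus minus EDL (5), 12 in EDL minus myoblast (30) and 12 in soleus minus myoblast (28). A filter for signal above background on all arrays, which leaves 29 members, gave 8, 20, 17, 3, 19 and 17 in the same order. Without a filter, 46 of 71 members were called in EDL minus myoblast. That fit includes the 11 members above background on no array, whose scaled signal can also differ between groups. Mmp20, one of them, had a mean of 2.22 in EDL and 0.78 in myoblasts. Apart from normexp in soleus minus EDL, the number of all genes called under these alternatives is not given here. In soleus minus EDL, spike-in scaling gave 1, a fit of those 2 groups alone gave 3, and leaving out arrays gave 3 to 7; Adam1b and Adamts14 were the calls lost in the fit of 2 groups, and the count was 3 without soleus replicate 1 and without replicate 2 or 3 of every group. Leaving out arrays gave 15 to 20 calls in myotube minus myoblast, 29 to 31 in soleus minus myotube and 27 to 30 in EDL minus myotube. The replicate block gave 20, 30, 28, 5, 30 and 28 calls, in the order given first, and ended no call. All called members kept their sign within each of the 3 slides. The calls rest on these same arrays and on a size threshold, so this was likely beforehand and is no separate support. Spike-in scaling turned the direction in myotube minus myoblast for Adam17 (-0.18), then in soleus minus myotube for Adamts1 (-0.58), then in soleus minus EDL for Adam10 (-0.13), Mmp14 (-0.20) and Mmp2 (-0.14), then in EDL minus myoblast for Adam21 (-0.19), Adam23 (-0.27), Adamts1 (-1.08), Adamts10 (-0.22), Adamts14 (-0.29), Mmp17 (-0.22), Mmp2 (-0.65) and Timp3 (-1.23), then in soleus minus myoblast for Adam23 (-0.21), Adamts1 (-0.069), Adamts10 (-0.41), Adamts2 (-0.38), Mmp17 (-0.55) and Mmp2 (-0.79). Normexp background correction turned the direction in myotube minus myoblast for Adam30 (-0.80), Adamts20 (-0.81), Adamts8 (-1.07), Adamts9 (-1.23) and Timp4 (-0.63), then in EDL minus myotube for Adam10 (0.30) and Adam12 (0.51), then in soleus minus myotube for Adam10 (1.14), Adam12 (1.47) and Adamts6 (0.062), then in soleus minus EDL for Adam12 (0.96), Adam19 (0.50), Adam1b (0.36), Adamts4 (0.35) and Mmp14 (-0.24), then in EDL minus myoblast for Adam1b (-0.074), Adam21 (-0.23), Adam23 (-0.41), Adam30 (-0.012) and Adamts10 (-0.090). The mean over probes turned the direction in myotube minus myoblast for Adamts2 (0.082), then in EDL minus myotube for Adam12 (0.025), then in soleus minus myotube for Adam12 (0.048), then in soleus minus EDL for Adam12 (0.024) and Mmp14 (-0.11), then in EDL minus myoblast for Adamts5 (0.19). Quantile normalization turned the direction in soleus minus EDL for Timp4 (0.046), then in EDL minus myoblast for Timp3 (-0.29), then in soleus minus myoblast for Adam17 (0.014). The authors' deposited values turned the direction in soleus minus EDL for Timp4 (0.032), then in EDL minus myoblast for Timp3 (-0.21), then in soleus minus myoblast for Adam17 (0.022). Leaving out arrays took uncalled values across 0 for Adam12 in EDL minus myotube (-1.13 to 0.034), Adam12 in soleus minus EDL (-0.48 to 0.095), Timp4 in soleus minus EDL (-0.075 to 0.029) and Adam17 in soleus minus myoblast (-0.15 to 0.029). Calls that held in every alternative that gave a value numbered 13 of 29 in soleus minus myotube and 14 of 27 in EDL minus myotube. They numbered 5 of 18 in myotube minus myoblast, 0 of 5 in soleus minus EDL, 11 of 30 in EDL minus myoblast and 10 of 28 in soleus minus myoblast. Against myotubes Timp1, Timp2, Timp4, Mmp14, Mmp11, Adam8, Adam19, Adamts4, Adamts7, Adamts8, Adamts9 and Adamts15 held in both muscles. Against myoblasts the same genes held in both muscles, except Adamts9 and Adamts15. In myotube minus myoblast Timp1, Timp3, Adam8, Adam1a and Mmp15 held. Signal over background limits the dim probes. The brightest probes of Adamts8, Adamts9 and Adamts20 were below it in myoblasts, whereas those of Adam30 and Timp4, which also turned under normexp, were above it on all arrays.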

Other observations

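Several members that missed the filter were above background on some arrays. Mmp8, neutrophil collagenase, had a normalized signal of 3.45, 4.24 and 3.98 in soleus and 4.75, 5.77 and 4.82 in EDL, above background on 1 and 2 of these arrays, and it was below background on all culture arrays. Mmp24, a membrane-type MMP known from neurons, was above background on 2 arrays of each group. Adamts18 was above background on 2 arrays of each muscle and on 1 array of each culture. Adamts12 was above background on 1 soleus array and on 2 arrays of every other group.

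Sperm-associated ADAM genes gave signal in muscle and culture. Adam2, known in mouse as fertilin beta, was above background on 2 arrays of every group, on slide 1 the lowest of each group, with 2.68, 4.87 and 4.98 in soleus and 1.71, 3.99 and 4.66 in myoblasts. Adam3 was tested and not called in any comparison, with 5.79 ± 0.79 in soleus, 5.75 ± 0.77 in EDL, 5.01 ± 0.96 in myotubes and 5.13 ± 0.46 in myoblasts (SD, n = 3). Adam26a reached 7.69 and 7.18 on the myotube arrays of slides 2 and 3 but 3.95 on that of slide 1. Adam32 read 6.67 on soleus array 3 and 2.84 and 2.04 on the other soleus arrays. These genes were chosen after their values were seen.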
